A study of Homo sapiens with 2 samples.

Results

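The BCL2 family was followed in RNA-seq of ACHN cells, an established human renal cell carcinoma line, through 10 genes chosen by name: the antiapoptotic members MCL1, BCL2L1 and BCL2L2, the effectors BAX and BAK1, and the BH3-only members BID, BAD, BCL2L11, BBC3 and PMAIP1. All 10 were found among the 12014 protein-coding genes listed. ACHN cells were infected with lentivirus that expressed a short hairpin RNA against KIAA1429, a scaffold of the complex that writes m6A on mRNA (shKIAA1429), or a negative control hairpin (shNC), and stable lines were selected with puromycin. The sample labels call the first group a knockout, whereas the study's methods describe a knockdown, and both groups share the cell line, the virus type and the selection. There was 1 library per group, so every difference below is one between 2 libraries, without an error, a replicate or a p-value. Fewer cells with an mRNA and less of it per cell cannot be told apart in such bulk samples.

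BCL2 family proteins decide at the outer mitochondrial membrane whether a cell enters intrinsic apoptosis. BAX and BAK1 form the pores that release cytochrome c, MCL1, BCL2L1 (BCL-XL) and BCL2L2 (BCL-W) hold them in check, and the BH3-only proteins act upstream, where they bind the antiapoptotic members and in part activate BAX and BAK1 directly. BCL2L11 (BIM), BBC3 (PUMA) and PMAIP1 (NOXA) are controlled largely at the level of their mRNA, while BAD is controlled by phosphorylation and BID by cleavage. BCL-XL and MCL1 are the main survival proteins of many epithelial tumor cells.

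All members carry a BH3 core, the helix through which BH3-only proteins enter the groove of their antiapoptotic partners, and its coding sequence is shown because it is what the members have in common. The 27 bases were read 5′ to 3′ on the coding strand from GENCODE 29 transcripts on GRCh38, with the codons of the core leucine (methionine in BCL2L2), of the small residue and of the aspartate after it in capitals. Each stretch lies in coding sequence within 1 exon.
MCL1: accTTAcgacgggttGGGGATggcgtg (chr1:150578871-150578897, minus strand, exon 1 of 3)
BCL2L1: gcgCTGagggaggcaGGCGACgagttt (chr20:31721928-31721954, minus strand, exon 2 of 3)
BCL2L2: gccATGcgggcagctGGAGATgagttc (chr14:23307900-23307926, plus strand, exon 3 of 4)
BAX: tgtCTCaagcgcatcGGGGACgaactg (chr19:48955784-48955810, plus strand, exon 3 of 5)
BAK1: cagCTCgccatcatcGGGGACgacatc (chr6:33575393-33575419, minus strand, exon 4 of 6)
BID: cacCTCgcccaggtcGGGGACagcatg (chr22:17739421-17739447, minus strand, exon 4 of 6)
BAD: gagCTCcggaggatgAGTGACgagttt (chr11:64271628-64271654, minus strand, exon 3 of 4)
BCL2L11: gagTTGcggcgtattGGAGACgagttt (chr2:111150100-111150126, plus strand, exon 3 of 4)
BBC3: cagCTGcggcggatgGCGGACgacctc (chr19:47226585-47226611, minus strand, exon 3 of 4)
PMAIP1: caaCTCaggagatttGGAGACaaactg (chr18:59902670-59902696, plus strand, exon 2 of 2)
The codon of the small residue encodes glycine in 8 of the members, serine in BAD and alanine in BBC3. BAD and BCL2L11 shared 20 of the 27 bases, more than any other pair, whereas BCL2L2 and BID shared 8.

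The values are FPKM as the authors deposited them, fragments scaled to gene length and to the mapped fragments of the library, so levels of different genes can be set side by side within a library. They hold no read numbers, which leaves the depth unknown and allows no interval for counting error. A change is the log2 ratio of FPKM + 1 between the libraries, shKIAA1429 over shNC, and the added 1 makes it smaller for genes of low level. KIAA1429, listed as VIRMA, was at 3.92 FPKM with shNC and 3.22 FPKM with shKIAA1429, 82.1% of the control level. Its log2 change was -0.22, and 2026 genes with a mean of at least 1 FPKM had a lower one. The study reported a significant decrease of KIAA1429 by RT-qPCR and western blot, which these libraries show only weakly. The median log2 change of the 10702 genes with a mean of at least 1 FPKM was 0.06. The FPKM of all genes summed to 283046 with shNC and 249409 with shKIAA1429, with 42.2% and 34.6% of it in 13 mitochondrial genes, and rescaling both libraries to the same sum moved the median change up by 0.18. Every listed gene reached at least 0.5 FPKM in 1 or both libraries, so a gene not listed may have been below that level. Its absence does not show that the mRNA was missing. Of 18 renal epithelial and carcinoma markers 11 were listed, while AQP1, CA9, CDH6, CUBN, EMX2, LRP2 and MME were not. Of these 11, 3 were higher and 8 lower with shKIAA1429, against 57.3% of all genes higher. Above 0.5 stood 1 of them, against 9.9% of all genes, and below -0.5 stood 3, against 6.12%. Their median log2 change was -0.36, and their levels summed to 1041 FPKM in the shNC library and to 844 FPKM in the other. PAX8 was higher (0.68), and VIM, the most abundant of them (-0.69), CDH2 (-0.58) and CDH16 (-0.53) were lower. Of 12 markers of other cell types 3 were listed, CD68, COL1A1 and PDGFRB, with sums of 5.62 and 4.66 FPKM. CD68 was at 3.87 FPKM with shNC and 2.06 FPKM with shKIAA1429 (-0.67), while COL1A1 (0.33) and PDGFRB (0.25) were higher. PTPRC, CD3E, CD14, PECAM1, VWF, CDH5, DCN, ALB and INS were not listed.

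The mRNAs of BCL2L11, BBC3 and PMAIP1 were higher in the shKIAA1429 library, while those of the antiapoptotic members and of the effectors were nearly level. PMAIP1, whose product NOXA binds MCL1, was at 13.7 FPKM with shNC and 34.9 FPKM with shKIAA1429, a log2 change of 1.29. BCL2L11, whose product BIM binds all antiapoptotic members, was at 1.92 FPKM and 4.89 FPKM, a log2 change of 1.01. BBC3, whose product PUMA binds all antiapoptotic members, was at 5.48 FPKM and 9.16 FPKM, a log2 change of 0.65. Among the antiapoptotic members and effectors, the change lay between -0.059 and 0.14.

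**Figure D1:**
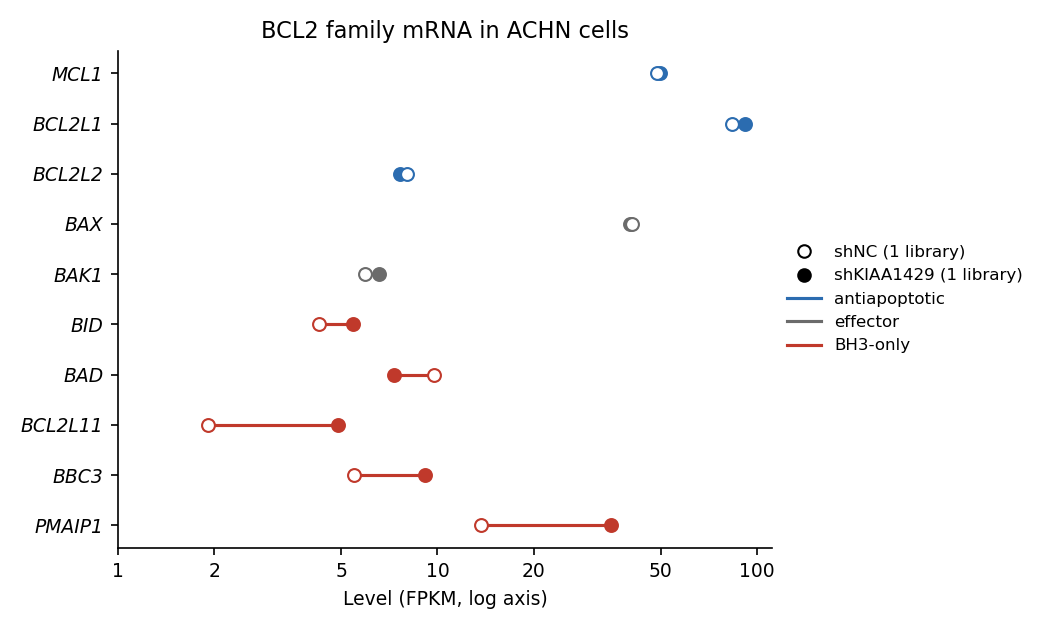
Level of each of the 10 members (FPKM, log axis), with an open point for the shNC library, a filled point for the shKIAA1429 library and a line between them. PMAIP1 and BCL2L11 have the longest lines, from 13.7 to 34.9 FPKM and from 1.92 to 4.89 FPKM, and the points of MCL1, at 48.7 and 49.6 FPKM, and BAX, at 40.5 and 40.0 FPKM, nearly coincide.

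Of the 10 members, all of which passed the filter on low values, 0 were past 1.5 on the log2 scale, the limit taken from the study's methods. The study set that limit on DESeq2 fold changes together with a p-value limit. Here it was set on ratios of FPKM + 1 without a p-value, so the counts are not those of the study's criterion. Of all 10702 genes, 0.383% were higher and 0.252% lower by more than 1.5. After rescaling to the same sum, PMAIP1 stood just past it, at 1.51. At a limit of 1, PMAIP1 and BCL2L11 were higher, 2 of 10 members against 1.61% of all genes, and 0 were lower, against 0.897%. At a limit of 0.5, 3 of 10 members were higher, against 9.9% of all genes, and 0 were lower, against 6.12%. By sign alone, 7 members were higher and 3 lower, against 57.3% of all genes higher, and the 7 became 6 when the median change of all genes was set to 0 and 9 after rescaling to the same sum. The median log2 change of the members was 0.13, beside 0.06 over all genes.

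**Figure D2:**
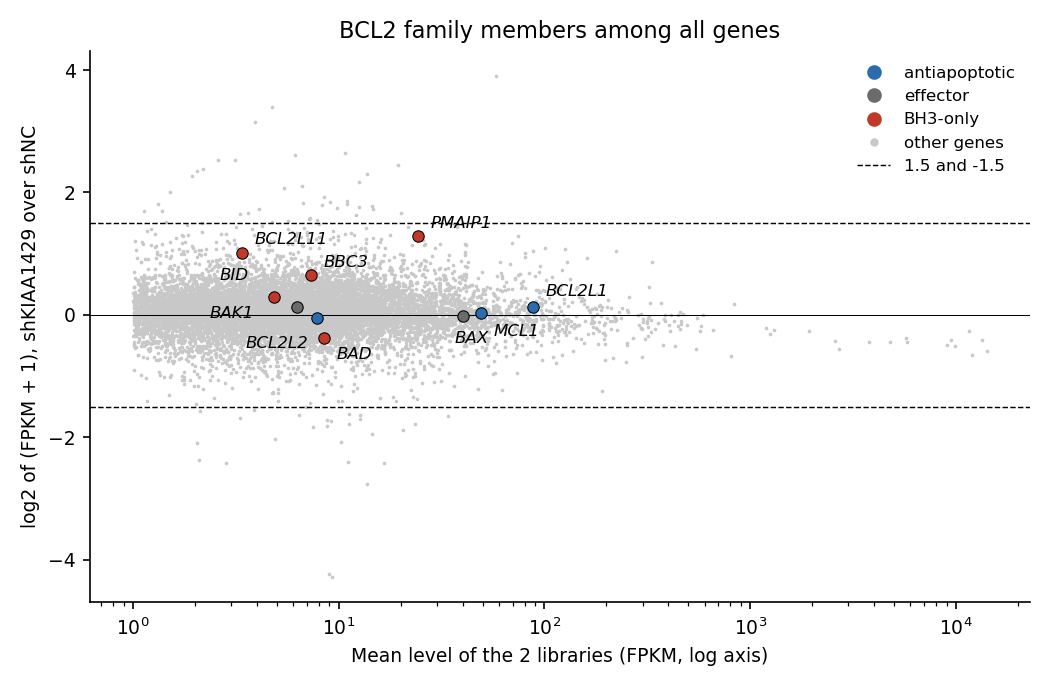
Log2 change of (FPKM + 1), shKIAA1429 over shNC, against the mean level of both libraries (FPKM, log axis) for 10702 genes in grey and the members in color by class, with dashed lines at 1.5 in each direction. PMAIP1, at 1.29, and BCL2L11, at 1.01, lie near the upper edge of the grey cloud, BBC3 at 0.65 lies below them, and the antiapoptotic members and effectors lie between -0.059 and 0.14.

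Among the antiapoptotic members, BCL2L1 and MCL1 made up nearly all of the mRNA. BCL2L1 (ENSG00000171552.12_3, chromosome 20 of GRCh37, 30252255 to 30311792) was the most abundant member in both libraries, at 83.6 FPKM with shNC and 91.9 FPKM with shKIAA1429. Its log2 change was 0.14, and 4281 of the 10702 genes had a higher change. The gene encodes a long antiapoptotic and a short proapoptotic splice form, which a value per gene does not separate.

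MCL1 (ENSG00000143384.12_2, chromosome 1 of GRCh37, 150547027 to 150552214), a short-lived protein held up by steady synthesis, was at 48.7 FPKM with shNC and 49.6 FPKM with shKIAA1429. The log2 change was 0.027, in the middle of all genes, and its sign turned, to -0.031, when the median change of all genes was set to 0. BCL2L1 mRNA stood at 1.72 times the level of MCL1 with shNC and at 1.85 times with shKIAA1429.

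BCL2L2 (ENSG00000129473.9_3, chromosome 14 of GRCh37, 23767999 to 23780968) was the least abundant of this class, at 8.01 FPKM with shNC and 7.65 FPKM with shKIAA1429. The difference of -0.059 on the log2 scale became 0.11 after rescaling to the same sum. The gene overlaps the listed read-through gene BCL2L2-PABPN1 on the same strand (chromosome 14, 23776044 to 23794578), which was at 2.16 FPKM with shNC and 0.192 FPKM with shKIAA1429. Together the genes reached 10.2 FPKM and 7.84 FPKM, a log2 change of -0.34. PABPN1, the downstream partner of the read-through gene, was at 20.1 FPKM and 16.6 FPKM. How reads were divided between these genes was not tested. No such overlap was found for the other members. On the opposite strand, BCL2L2 overlaps HOMEZ (5.37 and 5.22 FPKM) and PPP1R3E (1.27 and 0.624 FPKM), and BAD overlaps GPR137 (4.13 and 3.84 FPKM). The libraries kept the strand, but whether it was used in quantification is not given in the sources used here.

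The effectors showed little difference between the libraries. BAX (ENSG00000087088.19_3, chromosome 19 of GRCh37, 49458072 to 49465055) was at 40.5 FPKM with shNC and 40.0 FPKM with shKIAA1429, a log2 change of -0.019 that turned to 0.16 after rescaling to the same sum. BAK1 (ENSG00000030110.12_2, chromosome 6, 33540324 to 33548070) was at 5.95 FPKM and 6.56 FPKM, a log2 change of 0.12. BAX mRNA was 6.81 times as abundant as that of BAK1 with shNC and 6.10 times with shKIAA1429.

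The BH3-only members divided into 3 with a log2 change above 0.5 and 2, BID and BAD, without one. PMAIP1 (ENSG00000141682.11_2, chromosome 18 of GRCh37, 57567180 to 57571538) was the most abundant BH3-only mRNA in both libraries. Its level with shKIAA1429 was 2.55 times that with shNC, and 73 of the 10702 genes had a higher log2 change. PMAIP1 ranked 4 by level among the members in both libraries, behind BCL2L1, MCL1 and BAX.

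BCL2L11 (ENSG00000153094.22_3, chromosome 2 of GRCh37, 111876955 to 111926024) was the least abundant member in both libraries. Its level with shKIAA1429 was also 2.55 times that with shNC, while the log2 change with a pseudocount of 1 was smaller than that of PMAIP1 because the values were low, and with a pseudocount of 0.1 it was 1.31. There were 167 genes with a higher change. A change above 1 was found in 1.69% of the 4663 genes with a mean of 1 to 5 FPKM. The share was 1.54% among the 6039 genes with a mean of at least 5 FPKM. Because the added 1 makes changes smaller at low levels, these shares do not measure the noise at the level of BCL2L11.

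BBC3 (ENSG00000105327.17_3, chromosome 19 of GRCh37, 47724079 to 47736023) was 1.67 times as high with shKIAA1429, and 566 genes had a higher log2 change. It moved from rank 8 to rank 5 by level among the members. BID (ENSG00000015475.18_2, chromosome 22, 18216904 to 18257536), which links death receptors to mitochondria once caspase-8 has cleaved it, was at 4.25 FPKM with shNC and 5.44 FPKM with shKIAA1429, a log2 change of 0.29. BAD (ENSG00000002330.13_2, chromosome 11, 64037302 to 64052176), which binds BCL-XL when survival kinases are silent, was at 9.74 FPKM and 7.29 FPKM. Its log2 change of -0.37 was the lowest of the members, and 1093 genes had a lower one.

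The sums of the classes are given because family proteins act by binding one another, although mRNA levels do not measure protein. The antiapoptotic members summed to 140.3 FPKM with shNC and 149 FPKM with shKIAA1429. The effectors summed to 46.5 FPKM and 46.6 FPKM. The BH3-only members summed to 35.1 FPKM and 61.7 FPKM, 1.76 times as much with shKIAA1429. Their share of the sum over the 10 members was 15.8% with shNC and 24.0% with shKIAA1429. The sums leave out the other BCL2-related genes followed below. Of the 9 of those with a mean of at least 1 FPKM, 4 were higher and 5 lower. BOK, named after its values were seen, was at 14.5 FPKM with shNC and 11.3 FPKM with shKIAA1429.

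PMAIP1 alone made up 39.0% of the BH3-only mRNA with shNC and 56.6% with shKIAA1429. BCL2L11, BBC3 and PMAIP1 together went from 21.1 FPKM to 49.0 FPKM, while the share of BAD and BID in the BH3-only mRNA went from 39.9% to 20.6%. Most of the difference in the BH3-only sum therefore lay in PMAIP1, which differed by 21.2 FPKM, with 3.68 FPKM for BBC3 and 2.97 FPKM for BCL2L11.

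**Figure D3:**
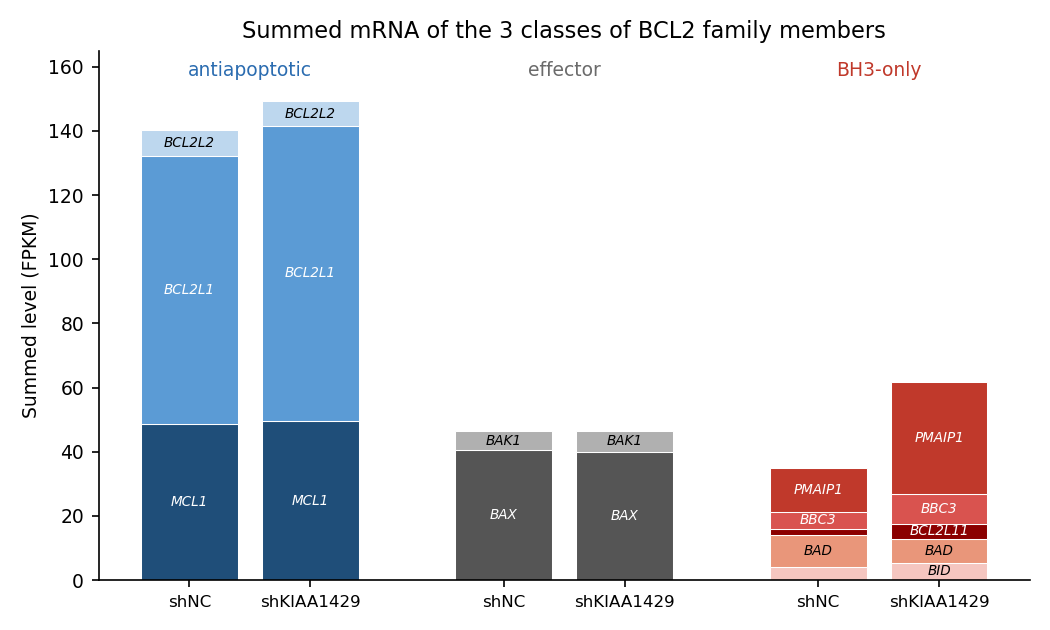
Summed level (FPKM) of the antiapoptotic, effector and BH3-only members in each library, 1 bar per library, stacked by member (BH3-only from the bottom: BID, BAD, BCL2L11, BBC3, PMAIP1). The BH3-only bar is 35.1 FPKM with shNC and 61.7 FPKM with shKIAA1429, with PMAIP1 as its largest block in both, and the effector bars are 46.5 and 46.6 FPKM high.

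Ratios within a library do not depend on how the libraries are scaled. BH3-only over antiapoptotic mRNA was 0.250 with shNC and 0.414 with shKIAA1429, 1.65 times as high. Effector over antiapoptotic mRNA was 0.331 and 0.312. Among the pairs of a BH3-only member and a partner that it binds, PMAIP1 over MCL1 was 0.281 with shNC and 0.704 with shKIAA1429, and BCL2L11 over BCL2L1 was 0.0229 and 0.0532. BBC3 over BCL2L1 was 0.0656 and 0.0996, and BAD over BCL2L1 was 0.117 and 0.0793. In every one of these pairs the antiapoptotic mRNA remained the more abundant in both libraries.

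The sequences upstream of the 3 BH3-only genes with a log2 change above 0.5 are shown because their mRNAs were higher together. Entries of RefSeq (GRCh38.p14) matched 8 of the 10 members, not MCL1 and BCL2L2, and the 250 bases before the start are printed 5′ to 3′ on the strand of the gene. The letters searched on both strands included CACGTG (E-box), TGACG (core of the cAMP response element, bound by ATF factors), TAAACA (forkhead core) and GGGCGG (GC box), and matches are in capitals.
PMAIP1 (chr18:59899746-59899995, plus strand): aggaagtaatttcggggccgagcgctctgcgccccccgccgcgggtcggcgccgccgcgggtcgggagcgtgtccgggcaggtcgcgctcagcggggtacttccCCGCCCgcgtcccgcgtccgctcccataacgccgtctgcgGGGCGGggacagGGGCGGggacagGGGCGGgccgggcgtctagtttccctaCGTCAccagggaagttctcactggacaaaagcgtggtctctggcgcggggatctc
BCL2L11 (chr2:111120664-111120913, plus strand): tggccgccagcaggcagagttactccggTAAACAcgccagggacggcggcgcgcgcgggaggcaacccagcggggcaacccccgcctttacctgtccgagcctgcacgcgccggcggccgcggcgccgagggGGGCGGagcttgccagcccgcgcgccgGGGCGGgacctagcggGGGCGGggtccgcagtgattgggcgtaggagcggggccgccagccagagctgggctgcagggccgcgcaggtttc
BBC3 (chr19:47232668-47232917, minus strand): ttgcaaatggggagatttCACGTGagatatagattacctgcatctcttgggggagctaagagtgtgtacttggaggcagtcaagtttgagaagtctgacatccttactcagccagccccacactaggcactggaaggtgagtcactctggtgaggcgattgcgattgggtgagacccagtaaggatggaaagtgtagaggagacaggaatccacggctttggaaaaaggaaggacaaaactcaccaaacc
The window of PMAIP1 held 4 GC boxes and 1 cAMP response element core, that of BCL2L11 3 GC boxes and 1 forkhead core, and that of BBC3 1 E-box. Their GC content was 72.8%, 76.8% and 49.2%. Among all 35116 windows, 42.6% held a GC box, 21.2% the cAMP response element core, 11% the forkhead core and 6.34% an E-box. The same letters stood in windows of members without a change above 0.5. BAX held 4 E-boxes, 1 cAMP response element core and 1 GC box, and each window of BAD held 1 such core and 1 GC box. BAK1 held 2 GC boxes, 1 window of BCL2L1 held a cAMP response element core, and BID windows held up to 4 GC boxes. A window of BID also held a forkhead core, and other windows of BID held an E-box. Whether any of these letters act in the genes was not tested.

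Transcription factors known to act on BH3-only genes were followed as a list of 12 genes, of which 9 were listed with a mean of at least 1 FPKM. ATF3, a stress-induced factor, was at 4.98 FPKM with shNC and 13.1 FPKM with shKIAA1429, a log2 change of 1.24. DDIT3 (CHOP), an endoplasmic reticulum stress factor that acts on BCL2L11, was at 54.8 FPKM and 107 FPKM, a change of 0.95, and E2F1 was at 2.98 FPKM and 5.68 FPKM, a change of 0.75. MYC was lower, at 28.5 FPKM and 4.53 FPKM, and ATF4, the most abundant of the list, was at 181 FPKM and 146 FPKM, a change of -0.31. In this list 3 of 9 genes were above 0.5, against 9.9% of all genes, and 1 was below -0.5, against 6.12%, with a median of 0.34.

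**Figure D4:**
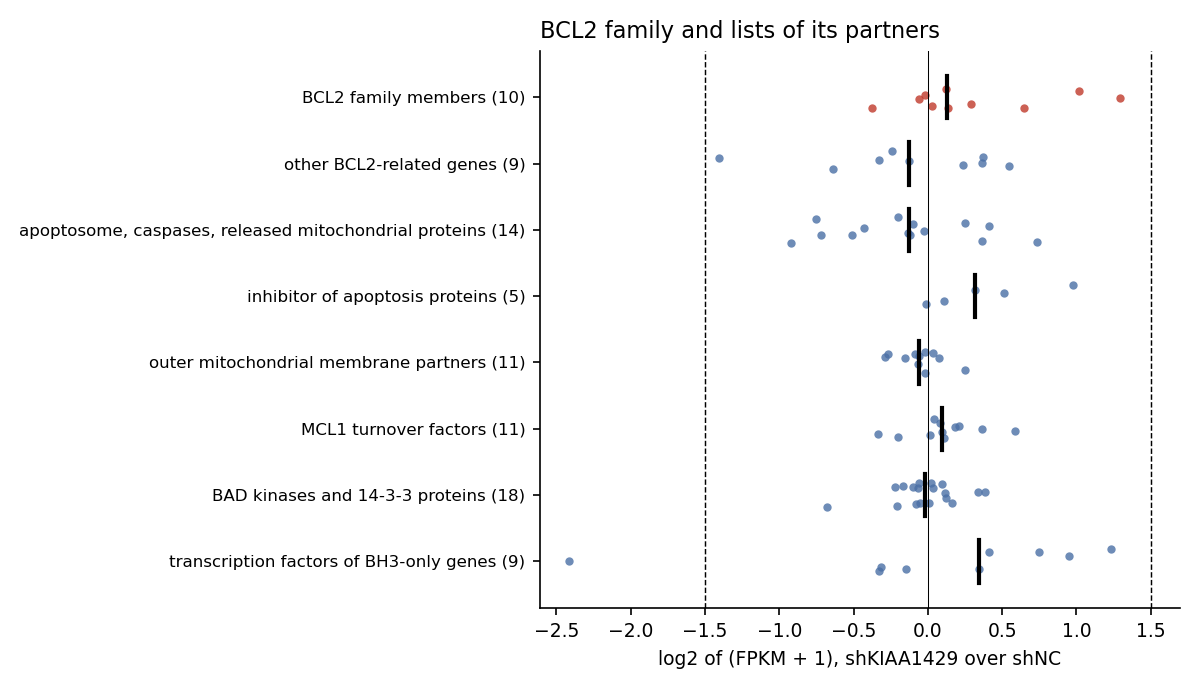
Log2 change of (FPKM + 1), shKIAA1429 over shNC, for each gene with a mean of at least 1 FPKM in the BCL2 family (red) and in lists of partners (blue), with the number of genes in parentheses, a black bar at the median and dashed lines at 1.5 in each direction. The transcription factors of BH3-only genes have a median of 0.34, the BCL2 family 0.13, and the apoptosome and caspase list -0.13.

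Downstream of the mitochondria, the genes of the apoptosome, the caspases and the proteins released through BAX and BAK1 pores were also followed. All 15 genes were listed, and of the 14 with a mean of at least 1 FPKM, 4 were higher and 10 lower with shKIAA1429, against 57.3% of all genes higher, with a median log2 change of -0.13. The initiator caspase of the pathway, CASP9, was at 1.92 FPKM with shNC and 0.774 FPKM with shKIAA1429, and APAF1, its platform, was at 6.17 and 4.03 FPKM. CASP2 was at 6.96 and 3.20 FPKM, a log2 change of -0.92 that was the lowest of the list, and CASP6 was at 7.69 and 4.16 FPKM. CYCS, which encodes cytochrome c and was the most abundant of the list, was at 39.4 FPKM with shNC and 51.0 FPKM with shKIAA1429.

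Of 7 inhibitor of apoptosis genes, which encode proteins that restrain caspases and cell death signaling, 5 were listed and 4 of them were higher, against 57.3% of all genes. BIRC3 was at 1.62 FPKM with shNC and 4.15 FPKM with shKIAA1429, a log2 change of 0.98, and XIAP was at 0.764 and 1.52 FPKM, a change of 0.51. BIRC6, the gene of highest mean level in the list, was at 6.06 and 7.82 FPKM. With shNC, BIRC5 was slightly higher, at 6.26 FPKM.

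Of 16 other BCL2-related genes, 10 were listed, while BCL2A1, BCL2L10, BCL2L14, BCL2L15, BMF and HRK were not. The gene BCL2 itself, named after its values were seen, was at 5.25 FPKM with shNC and 4.28 FPKM with shKIAA1429, below BCL2L1, MCL1 and BCL2L2 in both libraries. BCL2L13 was at 6.13 and 9.40 FPKM, a log2 change of 0.55. BNIP3, a mitophagy receptor and hypoxia target, was at 17.7 and 11.0 FPKM, a change of -0.64, whereas BNIP3L, its paralog and the most abundant of the list, was at 17.8 and 23.2 FPKM. The lowest change, -1.41, was that of BCL2L2-PABPN1. Of the 9 genes with a mean of at least 1 FPKM, 1 was above 0.5, near the 9.9% of all genes, 2 were below -0.5, against 6.12% of all genes, and the median was -0.12.

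The order of the members by level was nearly the same in both libraries. BCL2L1, MCL1, BAX and PMAIP1 held ranks 1 to 4, BCL2L2 rank 6, BID rank 9 and BCL2L11 rank 10 in both. BAD moved from rank 5 to rank 7 and BAK1 from rank 7 to rank 8. With 1 library per group it cannot be said which neighbours in this order differ beyond the spread of replicates.

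**Figure D5:**
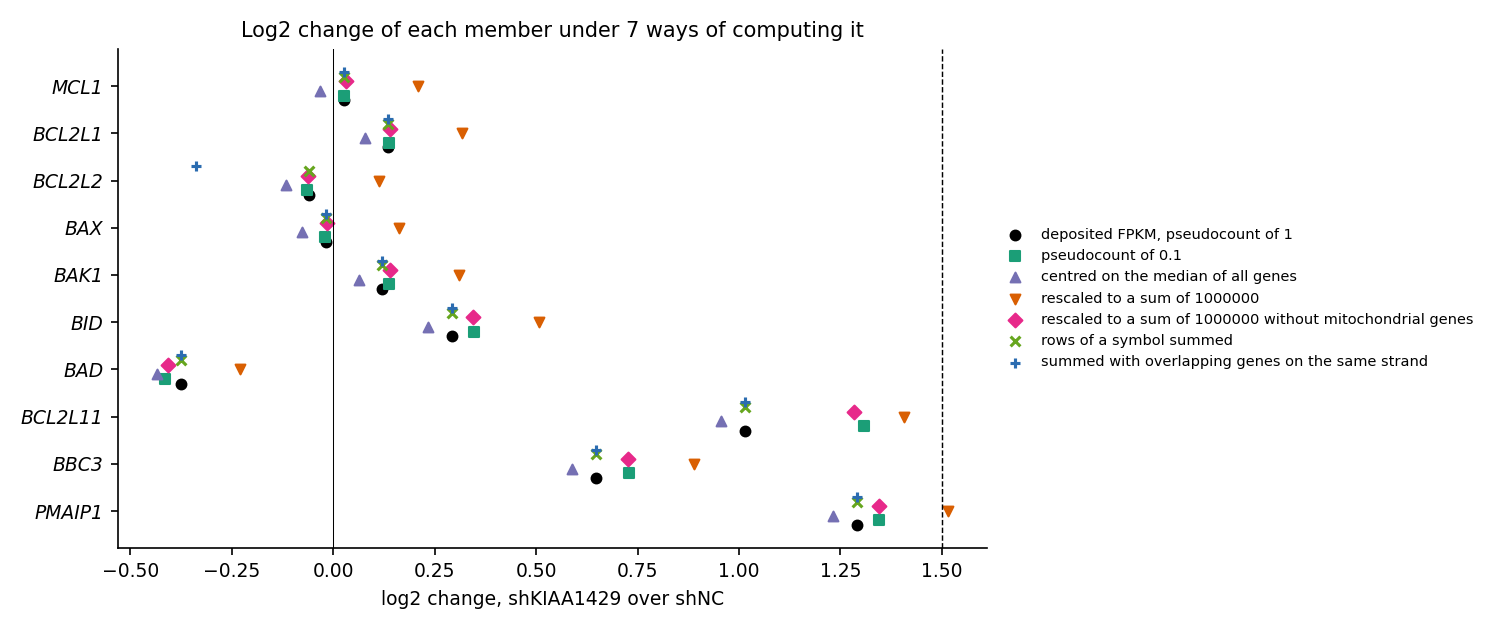
Log2 change of each member, shKIAA1429 over shNC, with 1 marker for each of 7 ways of computing it, and a dashed line at 1.5. PMAIP1 runs from 1.23 to 1.51, BCL2L11 from 0.96 to 1.41 and BBC3 from 0.59 to 0.89, all to the right of 0, while MCL1, BCL2L2 and BAX have markers on both sides of 0.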

How the data were processed

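Poly(A) RNA of 2 ACHN samples, 1 per group, was sequenced in strand-specific, paired-end libraries. The authors deposited FPKM values per gene; the submitters' processing notes name cutadapt 1.9, HISAT2 2.0.4, StringTie 1.3.4d, DESeq2 and edgeR without their roles, and the genome build is not given in the sources used here. The suffix of the gene identifiers marks GENCODE genes mapped to GRCh37, and positions in the files are given as such. FPKM keeps no read counts, so depth and counting error are unknown. From the deposited values, log2 of (FPKM + 1) ratios were computed with 1 row per symbol (of 7 repeated symbols, the row of highest mean), and genes with a mean of at least 1 FPKM were counted. No test was run, since each group has 1 library. The steps were tested on simulated data. All members were named, and from the other lists genes past 0.5 (the 5 largest changes at most) and the gene of highest mean level. Some genes, 1 list under this rule and 1 promoter motif are not reported here. The members and lists were chosen with earlier results of these data known. BH3 core sequences were found by a residue pattern in the longest GENCODE 29 coding sequence with a single match. Alternatives were a pseudocount of 0.1, centring, rescaling to a sum of 1000000 with and without mitochondrial genes, summing rows of a symbol, other limits and filters, and summing overlapping genes. Python 3.11.15, NumPy 2.4.6, pandas 2.3.3 and matplotlib 3.10.9 were used.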

Additional observations from a re-analysis of the deposited data

How the results depend on the processing

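PMAIP1, BCL2L11 and BBC3 stayed higher with shKIAA1429 with a log2 change above 0.5 under each of the 6 alternatives for their value, and BAD stayed lower. Summing rows of a symbol and summing overlapping genes could not change these values. None of these genes has a repeated row or overlaps another listed gene on the same strand. Centring shifts all genes by the same amount. The sign turned for MCL1 when the median change of all genes was set to 0 (-0.031), and for BCL2L2 (0.11) and BAX (0.16) when both libraries were rescaled to a sum of 1000000. That rescaling also placed 1 member above 1.5 in place of 0, PMAIP1 at 1.51, and moved the median of the members from 0.13 to 0.31. By construction it raises each value with shKIAA1429 relative to shNC, since the deposited sum was lower in that library. With the 13 mitochondrial genes left out of the sums, rescaling turned no sign. PMAIP1 was then at 1.34, BCL2L11 at 1.28, BCL2L2 at -0.061 and BAX at -0.015, and the median of the members was 0.14. A limit of 1 gave 2 higher members and a limit of 0.5 gave 3. The ratios of class sums stayed within 0.1 on the log2 scale when BCL2L2 was summed with its overlapping gene. No paired analysis was possible because neither group has a second library. Depth is unknown, isoforms are not separated, and without a second library of either group no difference can be set against the spread between cultures.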

Other observations

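Genes that act on single members of the family are given beside all genes, of which 57.3% were higher with shKIAA1429, 9.9% had a log2 change above 0.5 and 6.12% one below -0.5. Of 12 genes that govern the turnover of MCL1 protein or phosphorylate it, 11 were listed, 9 were higher with shKIAA1429, and 1 passed 0.5 on the log2 scale, the phosphatase gene DUSP6, at 9.94 FPKM with shNC and 15.4 FPKM with shKIAA1429 (0.59). HUWE1, a ubiquitin ligase of MCL1 and the most abundant of this list, was at 14.5 and 15.7 FPKM. Of 18 genes for kinases and phosphatases of BAD and for the adaptors that hold phosphorylated BAD in the cytosol, 9 were higher and 9 lower. YWHAB, one of these adaptors, was at 35.4 and 21.8 FPKM (-0.68). YWHAG, the gene of highest mean level in the list, was at 112 and 122 FPKM, while YWHAQ was higher with shNC, at 118 FPKM.

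All 11 genes for partners in the outer mitochondrial membrane and the adjoining endoplasmic reticulum stayed within 0.5, with 3 higher and 8 lower. TMBIM6, the most abundant of them, was at 202 FPKM with shNC and 167 FPKM with shKIAA1429.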
